A study of Homo sapiens with 2 samples.

Results

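The U2AF2 eCLIP signal of 10 genes at red cell membrane loci was examined in HEL cells, a human erythroleukemia line grown without treatment. The genes were PIEZO1 with the 4 antisense genes inside it (AC138028.1, AC138028.2, AC138028.4 and AC138028.5), SPTB with PLEKHG3 on the other strand, and EPB42, ANK1 and CA1. All 10 were found by symbol among the 58347 genes of the count table, through GENCODE 29 gene identifiers. They were picked by function and position with earlier results of these counts known, so their levels are described and not tested. In eCLIP, ultraviolet light crosslinks proteins to the RNA they touch, and an antibody (here to U2AF2) pulls down these fragments for sequencing. The samples formed 1 group of 2 biological replicates, and input libraries were not analysed here, so no value is an enrichment over input and the amount of an RNA cannot be told apart from the U2AF2 bound to it.

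U2AF2, also called U2AF65, is the part of the U2AF heterodimer that binds the stretch of C and T bases just upstream of a 3' splice site and helps to recruit the U2 snRNP to the intron. The red cell membrane is held by a skeleton of spectrin, which ankyrin and protein 4.2 fasten to the anion exchanger in the lipid bilayer. PIEZO1 is a mechanically gated cation channel of the same membrane, and inherited changes in PIEZO1, SPTB, ANK1 and EPB42 are known causes of red cell disorders. CA1 encodes carbonic anhydrase 1, an abundant enzyme of mature red cells.

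The libraries had 995428 gene counts in replicate 1 and 1350116 in replicate 2, while 97.3% and 97.4% of their uniquely mapped reads lay on no feature. Uniquely mapped reads assigned to more than 1 gene stayed out of the gene counts and made up 0.0477% and 0.0460%. Whether strand was used when counting is not stated in any source used here. For every gene below it therefore cannot be told which strand its reads came from. The 10 genes together held 0.438% of the gene counts in replicate 1 and 0.413% in replicate 2. Of the 15 erythroid markers examined, 3 held 10 counts or more per library, and the defining genes GATA1 (6 and 14 counts) and HBG2 (7 and 8) did not. The same minimum was met by 4 of 13 megakaryocyte, 1 of 8 T cell, 1 of 7 hepatocyte and 0 of 6 neuronal markers, and by 24.8% of all protein-coding genes. Summed over each list and per library, markers held 123 and 125 CPM (erythroid), 557 and 538 CPM (megakaryocyte), 42.7 and 49.5 CPM (T cell), 32.7 and 42.8 CPM (hepatocyte) and 11.9 and 12.0 CPM (neuronal). CPM is the count per 1000000 gene counts after scaling. Most of the megakaryocyte sum lay on GP1BA (309 and 310 CPM) and GP6 (171 and 150 CPM), while the median gene of that list and of the erythroid list alike held 4 counts over both libraries.

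Since U2AF2 acts at 3' splice sites, the sites of PIEZO1 that fall inside the exons of its antisense genes are shown first. PIEZO1 has 53 annotated 3' splice sites, and 8 of them lie inside these exons: 3 in AC138028.4, 4 in AC138028.2, 1 in AC138028.5 and 0 in AC138028.1. Each line gives the last 40 bases of the PIEZO1 intron and the first 3 bases of the exon, read 5′ to 3′ on the minus strand of GRCh38, with the longest unbroken run of C and T in the intron in capitals (the one nearest the exon where runs are equally long).
PIEZO1 site in AC138028.5 at chr16:88742093-88742135: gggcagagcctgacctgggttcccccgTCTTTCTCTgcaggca
PIEZO1 site in AC138028.2 at chr16:88738734-88738776: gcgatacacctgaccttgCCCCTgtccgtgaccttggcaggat
PIEZO1 site in AC138028.2 at chr16:88738103-88738145: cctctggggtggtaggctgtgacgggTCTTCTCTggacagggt
PIEZO1 site in AC138028.2 at chr16:88737812-88737854: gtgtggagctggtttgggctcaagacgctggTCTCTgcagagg
PIEZO1 site in AC138028.2 at chr16:88737644-88737686: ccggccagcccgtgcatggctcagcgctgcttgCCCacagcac
PIEZO1 site in AC138028.4 at chr16:88720281-88720323: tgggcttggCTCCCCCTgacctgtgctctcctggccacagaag
PIEZO1 site in AC138028.4 at chr16:88719958-88720000: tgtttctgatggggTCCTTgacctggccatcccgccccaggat
PIEZO1 site in AC138028.4 at chr16:88719719-88719761: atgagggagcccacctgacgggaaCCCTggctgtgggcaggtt

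The 8 PIEZO1 sites all end in AG and are all used by the longest coding transcript. Pyrimidines made up 94 of the 160 bases in their last 20 intron positions, or 58.8%. The exact 95% binomial interval was 50.7 to 66.5, with bases taken as independent. The same share averaged 65.5% over 43596 sites of all protein-coding genes that could be read in the same way and end in AG, and their 5th to 95th percentiles were 45% and 80%. Over the 26934 such sites of longest coding transcripts it averaged 68.0%, with 5th and 95th percentiles of 50% and 85%. With 8 PIEZO1 sites, neither difference was tested. The site in AC138028.5 was richest, at 80%, with a run of 9 pyrimidines that ends 4 bases before the exon. The last site in AC138028.4 was poorest, at 40%, and its longest run was 4 bases. The PIEZO1 sites in AC138028.2 lay between these, at 50% to 60%.

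The PIEZO1 locus spans chr16:88715338-88785220 on the minus strand (GRCh38, ENSG00000103335.21). The 4 antisense genes, on the plus strand, together held 3664 counts in replicate 1 and 4655 in replicate 2. PIEZO1 itself held 107 and 143 counts, or 106 and 107 CPM. Thus 97.2% of the counts of these 5 genes fell on the antisense genes in replicate 1 (exact 95% binomial interval 96.6 to 97.7) and 97.0% in replicate 2 (96.5 to 97.5). Intervals here and below cover counting error only. Counts per kb of exon, with exons merged over all transcripts of a gene, were also summed over the 5 genes. The antisense genes made up 99.4% of that sum, a value that rises with the number of antisense genes summed.

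AC138028.4 (chr16:88718615-88720459, ENSG00000260121.1) is a single exon of 1845 bases, of which 1427 lie across PIEZO1 exons near the 3' end of the channel gene. It held 1815 and 2264 counts, or 976 and 920 CPM per kb of exon (948 ± 39.1, SD, n = 2). AC138028.2 (chr16:88731180-88741425, ENSG00000224888.4) has 4797 bases of exon, 695 of them across PIEZO1 exons. It held 1538 and 1979 counts, or 318 and 309 CPM per kb. These 2 antisense genes held 49.0% and 42.3% of the counts of the 4. The level of AC138028.4 lay above that of AC138028.2 in both libraries.

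AC138028.5 (chr16:88741631-88742367, ENSG00000260617.1) is short, with 558 bases of exon and 111 of them across PIEZO1 exons. It held 177 and 220 counts, or 315 and 296 CPM per kb, a range that overlaps that of AC138028.2. AC138028.1 (chr16:88742767-88745748, ENSG00000182376.2) differs in that 0 of its 2238 exon bases lie across a PIEZO1 exon. It held 134 and 192 counts, or 59.4 and 64.4 CPM per kb, below the other 3 antisense genes in both libraries. PIEZO1, at 9.40 and 9.50 CPM per kb, stood below all 4. Within the locus the antisense gene with the largest part of its exons across PIEZO1 exons was highest, and the one with none was lowest of the 4. The order did not hold between these: AC138028.5 has a larger such part than AC138028.2 but was not higher in either library. A link between overlap and level was not tested.

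**Figure D1:**
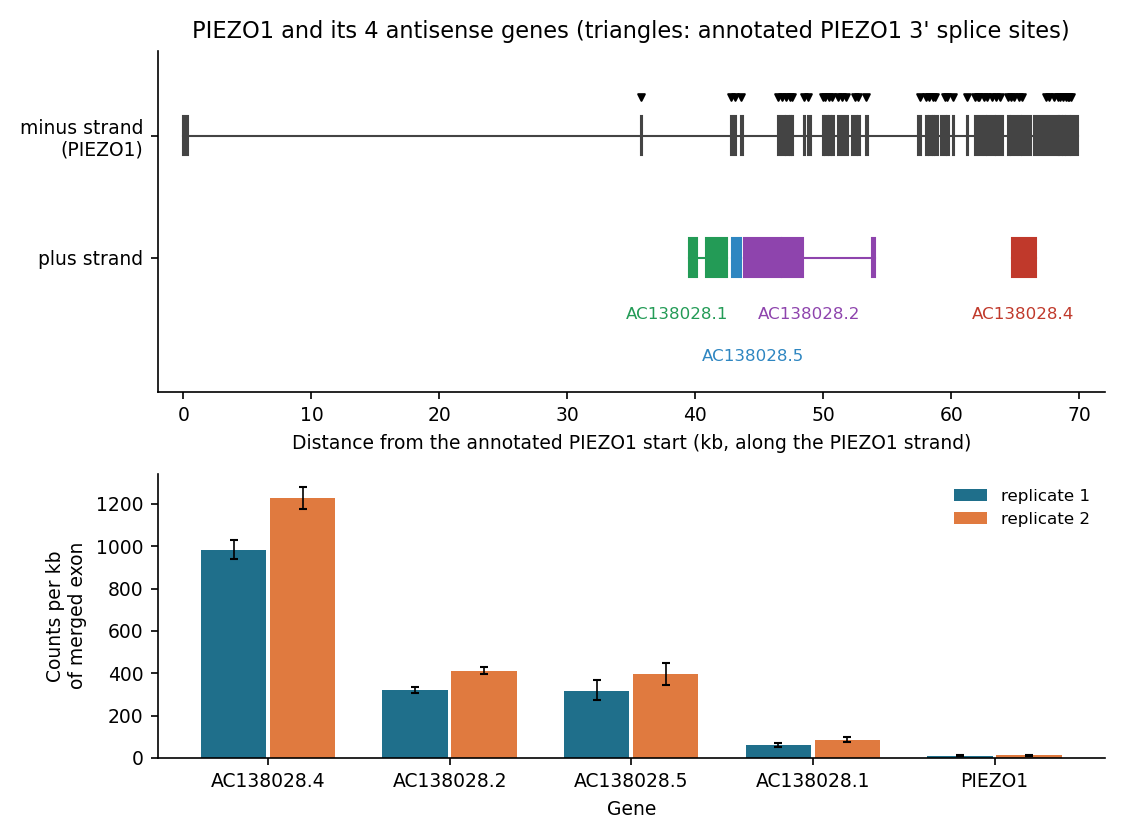
Upper panel: PIEZO1 on the minus strand and its 4 antisense genes on the plus strand, as distance in kb from the annotated PIEZO1 start, with boxes for merged exons and triangles for PIEZO1 3' splice sites. Lower panel: counts per kb of merged exon in each library (bars) with exact 95% Poisson intervals; AC138028.4 is highest at 984 and 1227 counts per kb, and PIEZO1 lowest at 9.48 and 12.7.

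The remaining gene over PIEZO1 exons is CTU2, which encodes a tRNA thiolation enzyme subunit and runs tail to tail with PIEZO1. It overlaps the end of PIEZO1 by 49 bases and held 93 and 134 counts. None of its 3' splice sites lies inside a PIEZO1 exon, nor any PIEZO1 site inside a CTU2 exon. The 3' splice sites of the antisense genes themselves (2 in AC138028.2, 1 in AC138028.5 and 2 in AC138028.1) also lie outside PIEZO1 exons, and AC138028.4 has none. PIEZO2, the other member of the channel family, held 1 and 2 counts.

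The PIEZO1 antisense genes were next set beside all genes of their class. Of the 5448 genes annotated as antisense, AC138028.4 ranked 44th in counts per kb of exon, AC138028.2 ranked 211th, AC138028.5 ranked 218th and AC138028.1 ranked 984th. All 4 held 10 counts or more per library, as did 37.6% of antisense genes and 15.4% of all genes. The 4738 antisense genes with a protein-coding gene opposite were then divided by the number of opposite-strand 3' splice sites in their exons. AC138028.4, with 2211 counts per kb, was the highest of the genes with 3 sites. AC138028.2, with 733, ranked 7th of those with 4 sites. AC138028.5, with 711, ranked 86th of those with 1 site, and AC138028.1, with 146, ranked 422nd of those with none. Median values were 9.56 counts per kb over both libraries for the 3285 genes with no site, 46.5 for 977 genes with 1 site and 80.7 for 274 genes with 2 sites. They were 48.7 for 86 genes with 3 sites, 55.0 for 56 genes with 4 sites and 145 for 60 genes with 5 or more. Every class with a site thus had a higher median than the class with none, without a steady rise with the number.

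**Figure D2:**
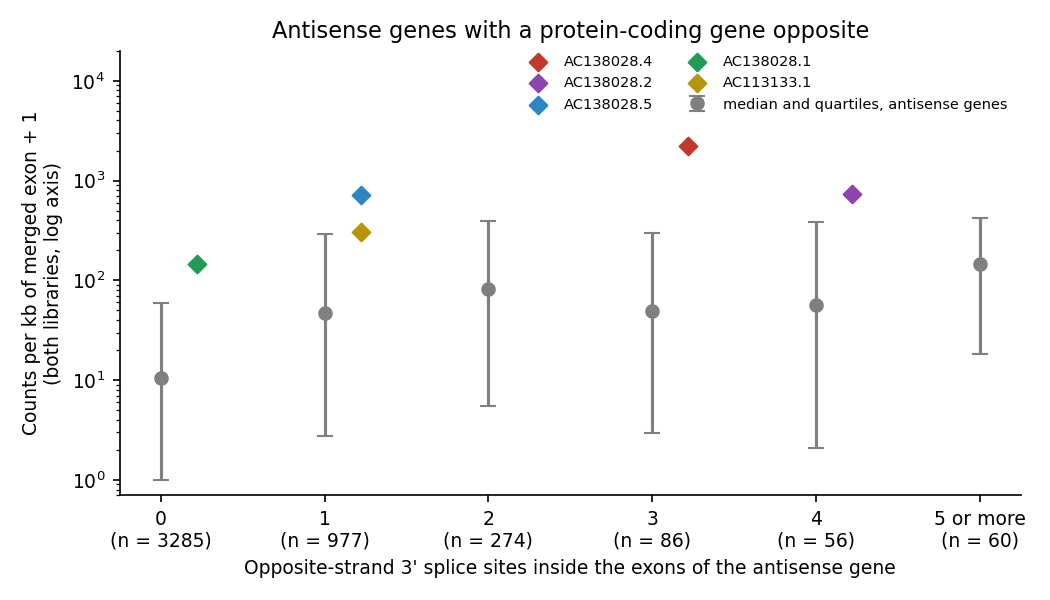
Counts per kb of merged exon over both libraries plus 1 (log axis) against the number of opposite-strand 3' splice sites inside the exons of antisense genes that have a protein-coding gene opposite. Grey points and bars are medians and quartiles of all such genes; diamonds are the 4 PIEZO1 antisense genes and AC113133.1 in ANK1, and each lies above the upper quartile of its class, from 146 counts per kb for AC138028.1 to 2211 for AC138028.4.

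The antisense genes were also divided by the kind of opposite-strand splice site in their exons. The median was 55.3 counts per kb for 544 antisense genes that hold opposite-strand 3' splice sites and no 5' splice site. It was 29.6 for 529 that hold only 5' splice sites, and 7.81 for 2756 that hold neither. Genes that hold both kinds are not among these. Median exon lengths also differed, at 653.5, 1093 and 590 bases in the same order. Across the 4738 genes, sites per kb and counts per kb had a Spearman correlation of 0.262. Both values are divided by the same exon length, and 3285 of the genes are tied with no site, which limits the reading of this correlation. The genes share both libraries, so this describes the class and is no test.

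Among the skeleton genes, SPTB encodes beta spectrin. SPTB (chr14:64746283-64879907, minus strand, ENSG00000070182.19) held 291 and 376 counts, or 289 and 282 CPM. PLEKHG3 (chr14:64704102-64750247, plus strand, ENSG00000126822.16), which encodes a guanine nucleotide exchange factor, held 80 and 100 counts, or 79.4 and 75.0 CPM. For each gene the 2 libraries differed by less than the counting error. The genes meet tail to tail, and 3408 bases are exon in both. SPTB took 78.4% of their joint counts in replicate 1 (exact 95% binomial interval 73.9 to 82.5) and 79.0% in replicate 2 (75.1 to 82.6). Per kb of exon SPTB held 19.5 and 19.1 CPM and PLEKHG3 held 6.66 and 6.30 CPM, and the ranges did not overlap.

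Here the gene with opposite-strand splice sites in its exons was the lower one. The exons of PLEKHG3 cover 3 of the 36 annotated 3' splice sites of SPTB, while 0 of the 17 sites of PLEKHG3 lie in SPTB exons. These 3 sites are shown because they lie where the exons of the pair meet. The layout is as for PIEZO1, on the minus strand, with the longest pyrimidine run in capitals.
SPTB site in PLEKHG3 at chr14:64750152-64750194: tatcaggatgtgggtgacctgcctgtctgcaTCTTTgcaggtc
SPTB site in PLEKHG3 at chr14:64749694-64749736: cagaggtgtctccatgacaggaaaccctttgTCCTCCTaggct
SPTB site in PLEKHG3 at chr14:64749471-64749513: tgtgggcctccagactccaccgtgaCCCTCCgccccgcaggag

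Each of the 3 SPTB sites had 65% pyrimidines in its last 20 intron bases, the median of all sites that could be read. All 3 are used by the longest coding transcript, and the median of readable sites of such transcripts was 70%. How the 667 counts of SPTB divide between the shared stretch and the rest of the gene cannot be told from counts per gene. SPTB ranked 1361st of 19817 protein-coding genes in counts per kb of exon, and PLEKHG3 ranked 3013th. Of the other spectrins described here, SPTBN5 held 65 and 71 counts and SPTAN1 39 and 48, while SPTBN1 held 2 and 3 and SPTBN4 2 and 5.

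Protein 4.2 had no gene on the other strand over its exons. EPB42 (chr15:43197227-43221125, minus strand, ENSG00000166947.11) held 87 and 153 counts, or 28.4 and 37.8 CPM per kb of exon. It ranked 803rd of all protein-coding genes in counts per kb, and 128th of the 11446 that have no opposite-strand gene over their exons, with 79.0 counts per kb over both libraries for EPB42 and a median of 0.537 for that class. The nearest gene on the other strand, CCNDBP1, ends 50 bases from EPB42 and held 197 and 293 counts. A same-strand transcript, AC068724.4, shares 447 exon bases with EPB42, and no count of it was used here. EPB42 belongs to the transglutaminase family but lacks enzyme activity, and of the 8 active family members examined, F13A1 held 21 and 25 counts and TGM2 held 9 and 21, more than the other 6.

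Ankyrin was the exception among the 10 genes. ANK1 (chr8:41653220-41896762, minus strand, ENSG00000029534.19) held 1 count in replicate 1 and 7 in replicate 2. The 3 counts that a count of 0 allows lie between these values. Its mean of 3.12 CPM was 0.992 CPM in replicate 1 alone and 5.25 CPM in replicate 2 alone. The antisense gene AC113133.1 (chr8:41660991-41665566), which has 842 exon bases across ANK1 exons, held 185 and 229 counts. It thus took 99.5% of the counts of the pair in replicate 1 (exact 95% binomial interval 97.0 to 100.0) and 97.0% in replicate 2 (94.0 to 98.8). Per kb of exon AC113133.1 held 134 and 125 CPM, above AC138028.1 and below the other 3 PIEZO1 antisense genes in both libraries. The other ankyrins held few counts as well, with 2 and 20 for ANK2 and 3 and 2 for ANK3.

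CA1 (chr8:85327608-85379014, minus strand, ENSG00000133742.13) held 131 and 141 counts, or 31.9 and 26.0 CPM per kb of exon. CA3, a muscle carbonic anhydrase, runs through part of CA1 on the plus strand, and 969 exon bases of CA1 lie within the span of CA3 while 0 are exon in both. CA3 held 29 and 37 counts, so CA1 took 81.9% of the counts of the pair in replicate 1 (exact 95% binomial interval 75.0 to 87.5) and 79.2% in replicate 2 (72.5 to 84.9). Neither gene has a 3' splice site inside the exons of the other. Of the 15 carbonic anhydrase genes, 3 reached 10 counts in both libraries: CA1, CA3 and CA14, with 122 and 156 counts for CA14. CA2, the other main red cell isoform, held 0 and 1 counts.

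**Figure D3:**
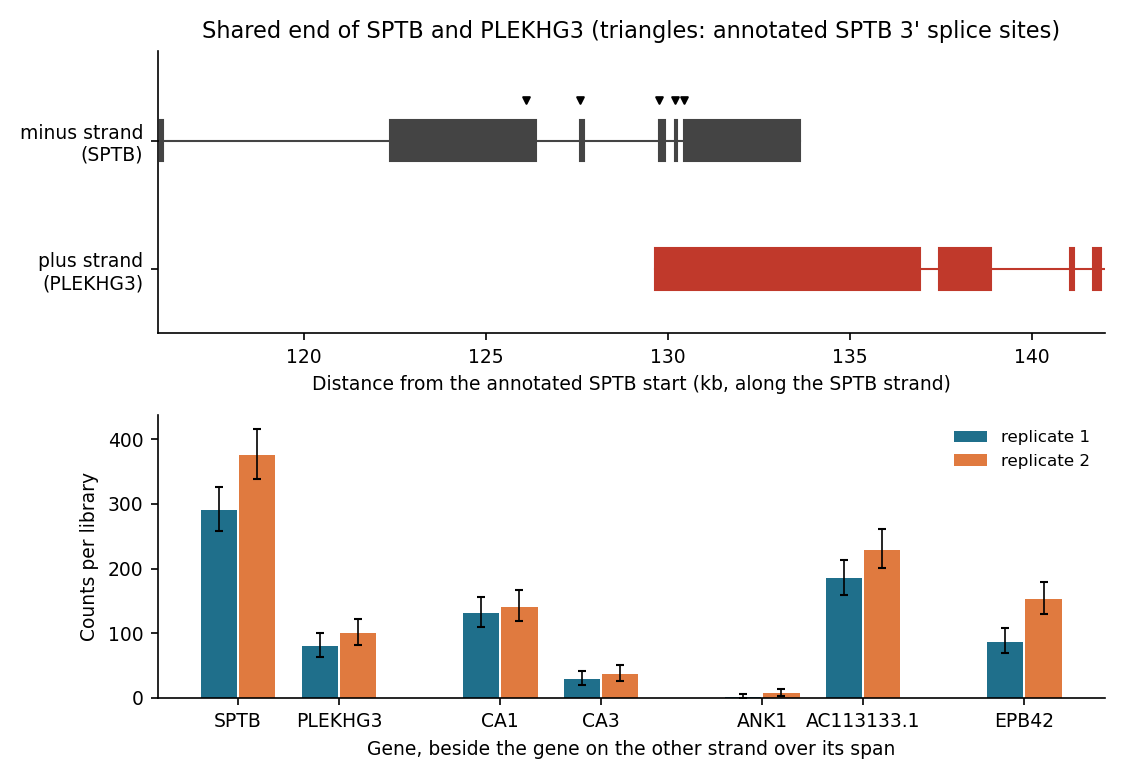
Upper panel: the shared end of SPTB (minus strand) and PLEKHG3 (plus strand), as distance in kb from the annotated SPTB start, with boxes for merged exons and triangles for SPTB 3' splice sites. Lower panel: counts in each library (bars) with exact 95% Poisson intervals for SPTB and PLEKHG3, CA1 and CA3, ANK1 and AC113133.1, and EPB42, which has no opposite-strand gene over its exons; SPTB holds 291 and 376 counts, ANK1 1 and 7.

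Ordered by CPM per kb of exon, the 10 genes ran from AC138028.4 (948 ± 39.1) through AC138028.2 (314 ± 6.05), AC138028.5 (305 ± 13.4), AC138028.1 (61.9 ± 3.51), EPB42 (33.1 ± 6.63), CA1 (28.97 ± 4.20), SPTB (19.3 ± 0.315), PIEZO1 (9.45 ± 0.0710) and PLEKHG3 (6.48 ± 0.258) to ANK1 (0.289 ± 0.279), each as mean and SD of 2 libraries. Neighbours in this order did not overlap between libraries except AC138028.2 with AC138028.5 and EPB42 with CA1. The 4 antisense genes stood above all 6 protein-coding genes in both libraries.

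**Figure D4:**
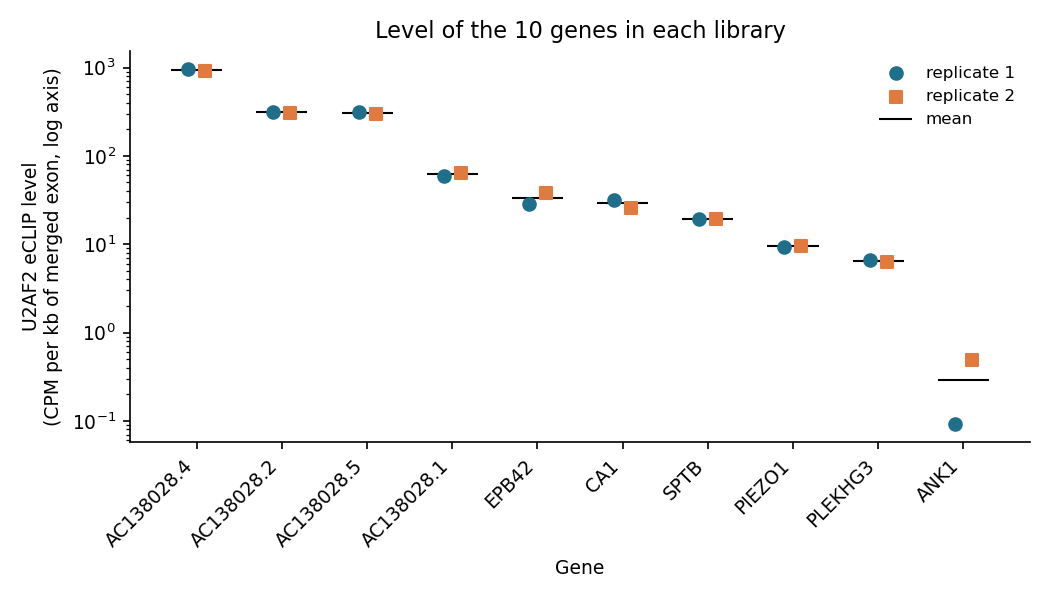
U2AF2 eCLIP level of the 10 genes in CPM per kb of merged exon (log axis), with a circle for replicate 1, a square for replicate 2 and a line for the mean. Levels fall from 948 for AC138028.4 to 0.289 for ANK1, and the 2 libraries lie close except for ANK1, with 1 and 7 counts.

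The replicates were then compared with each other, gene by gene. Genes needed 10 counts or more per library to be tested. Across the 8983 such genes, an exact two-sided conditional binomial test called 45 (0.501%) at an adjusted p (Benjamini-Hochberg) below 0.05, of which 10 (0.111%) were higher in replicate 1 and 35 (0.39%) in replicate 2. Of the 10 genes at the membrane loci, 9 were tested and 0 were called, which is near that share of all genes. ANK1 was below the minimum. The test measures these 2 libraries against counting error only. One member, EPB42, had an unadjusted p below 0.05, as had 8.56% of all genes tested. EPB42 held 86.3 CPM in replicate 1 and 115 CPM in replicate 2, a log2 ratio of replicate 1 over replicate 2 of -0.41 (exact 95% interval -0.81 to -0.02, unadjusted exact p = 0.0368, adjusted exact p = 0.524). For AC138028.4 and AC138028.2, the genes with the most counts, the log2 ratios were 0.08 (-0.01 to 0.17) and 0.04 (-0.06 to 0.14). The ratio for SPTB was 0.03 (-0.19 to 0.26) and for PIEZO1 -0.02 (-0.39 to 0.36).

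The red cell membrane as a whole was described through a list of 45 genes of its skeleton, channels, transporters and blood group proteins, 5 of which are among the 10. Of the 45, 19 (42.2%) reached 10 counts in both libraries, against 24.8% of all protein-coding genes. The median was 2.48 log2 CPM for the list and 1.78 for all protein-coding genes. Without the 5 genes described above, 15 of 40 (37.5%) reached it, with a median of 2.31 log2 CPM. Where a gene on the other strand lay over the exons, 14 of 24 list members met the minimum, against 42.0% of all such protein-coding genes. Where none did, 5 of 21 met it, against 12.3%. The 24 include SPTB, PIEZO1, CA1 and ANK1, and the 21 include EPB42. These 5 were picked with earlier results of these counts known, so neither split is free of that choice. The list was not tested as a set.

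After SPTB, the members of the list with the most CPM were ERMAP, a blood group protein of the immunoglobulin family, with 131 and 164 counts, then CA1, PIEZO1 and EPB42. RHD, the Rh blood group antigen, held 82 and 80 counts, and TMOD1, which caps the actin filaments of the skeleton, 62 and 72. ICAM4, the LW blood group adhesion protein, held 51 and 66 counts. RHD has a near-identical copy in RHCE, so its count is uncertain. ERMAP, RHD, TMOD1 and ICAM4 each have a gene on the other strand over their exons, as have 24 of the 45 list members. Which strand their reads came from cannot be told. At the other end, SLC4A1, the anion exchanger to which ankyrin and protein 4.2 bind, held 2 and 0 counts. RHAG, a partner of the Rh proteins, ADD3, an adducin of the skeleton, and CD59, an inhibitor of complement, held 0 in both libraries, which allows up to 2.98 CPM in replicate 1 and 2.25 CPM in replicate 2 (3 counts).

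Antisense genes lay over the exons of 12 list members. In 10 of these 12 (83.3%) the antisense genes held more CPM per kb of exon than the protein-coding gene in both libraries, as in 60.6% of the 3709 protein-coding genes with an antisense gene over their exons. CD44-AS1 held 415 and 553 counts, against 1 and 7 for CD44, an adhesion receptor. PIEZO1 and ANK1, which are among these 10, are described above and were picked with earlier results of these counts known. The antisense genes of TPM1, a tropomyosin, held 226 and 308 counts, against 28 and 37 for TPM1. Some of the 10 lay closer together. The antisense gene of BSG, a blood group protein, held fewer counts than BSG (18 and 23, against 37 and 49) and more only per kb. That of ADD2, an adducin, held 2 and 2 counts, against 1 and 4 for ADD2, values too low to order the pair. The exceptions were ACKR1, the Duffy blood group receptor, and SLC14A1, a urea transporter with 11 and 11 counts whose antisense gene held 0 in both libraries.

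**Figure D5:**
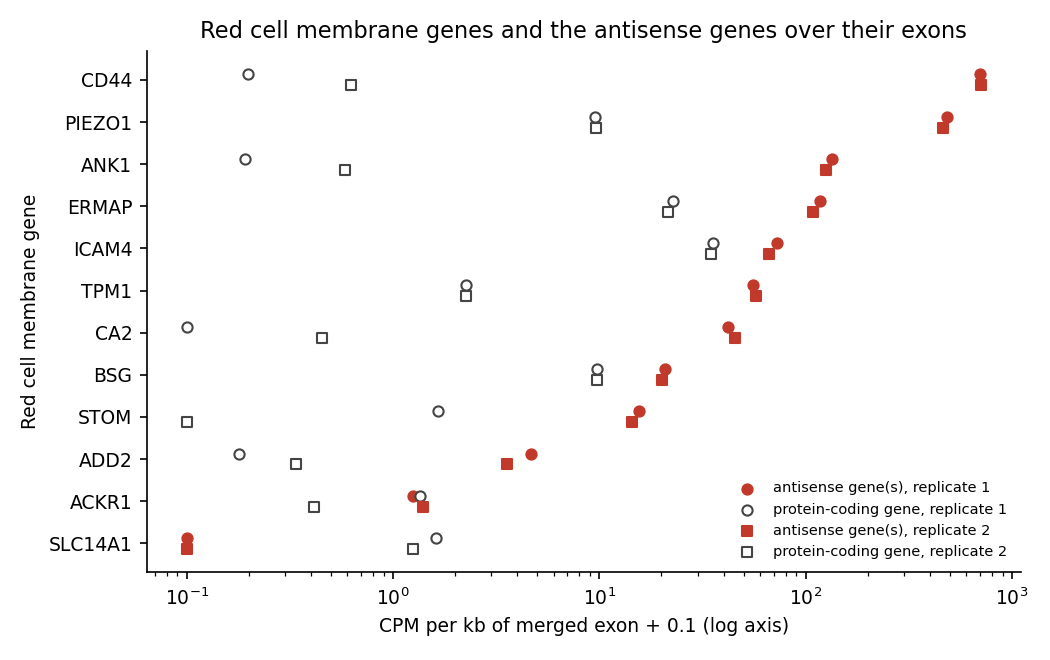
CPM per kb of merged exon plus 0.1 (log axis) of the antisense genes (filled symbols) that lie over the exons of 12 red cell membrane genes (open symbols), with circles for replicate 1 and squares for replicate 2. In 10 of the 12 genes both filled symbols lie to the right of both open ones, and ACKR1 and SLC14A1 are the exceptions.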

How the data were processed

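The authors deposited a table of raw, whole-number counts per gene for each of 2 U2AF2 eCLIP libraries of HEL cells. The submitters' processing notes name cutadapt, STAR 2.7.0f and GRCh38.p10. How reads were counted, whether by strand, on which annotation and with or without PCR duplicates is not given in the sources used here. Counting reads on their own strand, on the other strand or on both changes which overlapping gene receives a read. Duplicates left in make counting intervals too narrow. The 4 tally rows (98.3% of all reads in each library) stayed out of library sizes. Reads mapping to several places were not in the gene counts.

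Identifiers were matched without version to GENCODE 29 (GRCh38), which covered 99.5% of the 58347 genes. Exons were merged over all transcripts, retained introns included. Library sizes were scaled by TMM in edgeR 4.0.16 (R 4.3.3), from genes with 10 counts or more per library, and a prior count of 2 was added for log2 CPM. Replicates were compared with an exact conditional binomial test (scipy 1.17.1). It was checked only on simulated counts with counting error and no more, so the check does not cover extra spread between libraries or PCR duplicates. With 1 group the quasi-likelihood test could not be used. Sequences were read from GENCODE 29 transcripts that cover a site on either strand. This was possible for 18.8% of 3' splice sites, and 97.7% of those ended in AG.

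The 10 genes and all lists (red cell membrane, erythroid, megakaryocyte, T cell, hepatocyte and neuronal markers, and families of the members) were chosen with earlier results of these data known. All members were named, with partners over their exons, the 8 membrane genes highest in mean CPM and those at 0 counts. Up to 6 sites a locus were to be shown, and the other 2 PIEZO1 sites were added after values were seen. CCNDBP1, SLC4A1 and the genes with antisense partners were also chosen after their values were seen, as were the family members given with counts. Some family members are not reported here.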

Additional observations from a re-analysis of the deposited data

How the results depend on the processing

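No member was called between replicates with the scaling and count minimum given or with any of the 4 other settings run. The number of genes called was 45, and it was 71 with no minimum and 48 to 62 under the other settings. No paired analysis was possible because the samples form 1 group. Leaving out a replicate also left no test between replicates. The antisense share at the PIEZO1 locus was 97.1%, and it was 94.4% without AC138028.4 and 97.0% to 97.2% with 1 replicate left out. Of the summed counts per kb of exon of the locus genes, the antisense genes made up 99.4%, which is a different measure. The share of SPTB in the pair with PLEKHG3 was 78.7%, and it was 74.9% per kb of exon and 78.4% to 79.0% with 1 replicate left out. In the red cell membrane list 33 genes held at least 1 count in each library, against 19 with at least 10. Its median was 2.48 log2 CPM, and it was 2.10 with a prior count of 0.5 and 2.74 to 2.80 from single libraries; the cause was not tested. Pyrimidine shares of the PIEZO1 sites were 58.8% in the last 20 intron bases and 55.3% in the last 40. Other scalings moved the mean CPM of the 10 genes by less than the spread of the replicates in all 20 cases. Each scaling shifts the libraries in opposite directions, so their mean hardly changes and these cases cannot show robustness to scaling. Per kb of gene span, 9 of the 10 genes had a lower value, since a span is longer than its exons, and AC138028.4, a single exon, did not change. On that scale PIEZO1 (3.58 counts per kb over both libraries) lay below PLEKHG3 (3.90), and AC138028.5 (539) above AC138028.2 (343). Depth limits ANK1 most, with 1 and 7 counts.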
